A study of Mus musculus with 125 samples.

Results

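Genes of the molecular clock and of the glucocorticoid response, 10 in all, were followed in mouse endothelial cells, the cells that line blood vessels. They were chosen by name, with earlier results of these data known. Of 27998 genes in the single-cell tables the 10 were Per1, Per2, Dbp, Nr1d1 and Nr1d2 for the clock, and Nr3c1, Fkbp5, Tsc22d3, Zbtb16 and Sgk1 for the glucocorticoid response. Their levels were read in 23709 endothelial barcodes of 42340 barcodes deposited for brain. A barcode, which stands for 1 droplet and usually 1 cell, was kept with at least 200 genes, at most 10% of its counts on mitochondrial genes, and at least 3 of the 6 endothelial genes Cdh5, Pecam1, Egfl7, Esam, Tie1 and Kdr. Open chromatin around the same 10 genes was read from 66 lists of ATAC-seq peaks.

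The clock is a feedback loop. CLOCK and ARNTL bind E-boxes in DNA and switch on the Per and Cry genes, whose proteins then shut their own genes off. The nuclear receptors encoded by Nr1d1 and Nr1d2 repress Arntl, and DBP drives output genes through D-boxes. Glucocorticoids, whose release from the adrenal gland follows the day, bind the receptor encoded by Nr3c1, which then acts on DNA at glucocorticoid response elements. Fkbp5, Tsc22d3, Zbtb16, Sgk1 and also Per1 are well known targets of that receptor in many tissues.

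Single-cell RNA-seq was made from 1 preparation each of E9.5, E12.5 and E16.5 embryonic brain, opened with collagenase, and of P8 and adult (2 month) cortex, opened with a neural tissue kit, and in each the cells were enriched with beads against CD31, an endothelial surface protein. ATAC-seq, which marks open chromatin, covered 37 libraries labelled endothelial (12 adult, 14 P6 and 11 E12) and 29 labelled input (10 adult, 16 P6 and 3 E12), from 6 organs at the postnatal ages (kidney, liver, lung, heart, retina and brain) and from trunk, brain and heart at E12. All mice of the ATAC-seq had been given tamoxifen, embryos at E10.5 through the dam, pups at P1 and P3 and adults 7 days before collection, and GFP in the vessels was checked in each. The group labelled P6 was collected at P7 according to the protocol, and E12 stands for E12.5. The labels name neither the strain, nor the gene that drives the reporter, nor the hour of collection, and they do not say how many animals went into a library. Age, brain region, dissociation, collection hour and the mix of sexes (read below from X and Y genes) cannot be told apart between the embryonic and the postnatal single-cell libraries. The P8 and adult libraries share region and kit, but age and hour of collection cannot be told apart between them either. The files of the E16.5 library carry another embryonic age in their names, and the age of the label is used here, so every E16.5 value rests on that label.

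From the youngest library to the adult, the endothelial barcodes numbered 5644, 6347, 3786, 4778 and 3154, with 45.7, 80.4, 42.5, 60.4 and 23.2 M (mega) counted molecules (UMIs). The median depth per barcode fell between 4896 UMIs (adult) and 10469 UMIs (E12.5). Between 0 and 50 barcodes were shared by any pair of libraries. The 6 endothelial genes summed to 1907, 3165, 3888, 3244 and 3078 UMIs per M (mega) UMIs of the library (CPM) from E9.5 to adult. The 8 pericyte and smooth muscle markers, none at 0 in any library, summed to 159, 94.8, 187, 695 and 1823 CPM. The 4 neuronal markers summed to 35.6, 112, 112, 70.6 and 321 CPM, nearly all of it Stmn2 (319 CPM in the adult), while Snap25, Syt1 and Tubb3 were at 0.602, 0.516 and 0.172 CPM there. From P8 to adult the 4 oligodendrocyte markers went from 3.26 to 50.2 CPM, the 6 of microglia and macrophages from 7.05 to 39.6 CPM, the 7 arterial ones from 407 to 1526 CPM and the 4 proliferation genes from 269 to 3.35 CPM. The 10 early response genes, which dissociation can switch on, summed to 443, 932, 3780, 3723 and 5510 CPM. The part of these other signals in the results below was not tested. Values given below without barcodes that held markers of another cell type still included pericyte and smooth muscle signal.

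The sequence before the start of transcription is shown for the starts where a clock or glucocorticoid element was found, and for 2 starts where peaks lay mostly in endothelial lists. Each run is the 250 bases upstream of a RefSeq start (assembly GRCm38.p6), read 5′ to 3′ on the gene's strand, and 7 of the 10 genes had an entry in the promoter table. Capitals mark a CACGTG E-box or a glucocorticoid response element, GNACA and TGTNC with any 3 bases between them, both searched on either strand.
Per1 (chr11:69098699-69098948, + strand): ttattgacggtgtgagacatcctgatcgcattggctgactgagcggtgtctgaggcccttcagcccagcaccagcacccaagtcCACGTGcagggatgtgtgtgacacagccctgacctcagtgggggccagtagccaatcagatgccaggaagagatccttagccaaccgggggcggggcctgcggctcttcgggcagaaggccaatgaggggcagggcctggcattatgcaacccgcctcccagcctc
Fkbp5 (chr17:28486150-28486399, - strand): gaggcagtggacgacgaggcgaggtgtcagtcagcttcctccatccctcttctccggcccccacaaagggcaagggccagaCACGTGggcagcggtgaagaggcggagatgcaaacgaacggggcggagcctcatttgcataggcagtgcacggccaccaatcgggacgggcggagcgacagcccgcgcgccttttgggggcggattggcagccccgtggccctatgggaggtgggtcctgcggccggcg
Sgk1 at the fifth start (chr10:21993640-21993889, + strand): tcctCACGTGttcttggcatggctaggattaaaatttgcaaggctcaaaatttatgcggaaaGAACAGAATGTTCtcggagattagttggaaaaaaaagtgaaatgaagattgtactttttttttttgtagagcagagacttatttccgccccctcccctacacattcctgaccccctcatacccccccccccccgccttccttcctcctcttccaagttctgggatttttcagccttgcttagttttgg
Sgk1 at the fourth start (chr10:21991973-21992222, + strand): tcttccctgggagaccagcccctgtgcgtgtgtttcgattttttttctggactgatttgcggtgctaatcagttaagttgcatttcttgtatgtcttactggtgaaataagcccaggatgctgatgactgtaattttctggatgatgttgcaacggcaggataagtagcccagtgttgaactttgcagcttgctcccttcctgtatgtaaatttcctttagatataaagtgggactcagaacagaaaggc
Tsc22d3 at its middle start (chrX:140548572-140548821, - strand): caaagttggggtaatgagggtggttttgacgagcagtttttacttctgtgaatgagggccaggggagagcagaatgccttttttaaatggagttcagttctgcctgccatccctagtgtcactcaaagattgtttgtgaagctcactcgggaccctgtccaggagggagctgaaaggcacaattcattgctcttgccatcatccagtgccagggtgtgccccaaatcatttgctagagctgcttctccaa

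The Per1 E-box lay at bases -166 to -161 from the first start and the Fkbp5 E-box at -169 to -164. The fifth start of Sgk1 had an E-box at -246 to -241 and, in addition, the sequence GAACAGAATGTTC at -188 to -176, the single match of the glucocorticoid response element among the genes' windows. Of 32851 promoter windows of the same length, 6.02% held the E-box and 0.387% the glucocorticoid response element. The D-box TTANGTAA, held by 2.06%, and the ROR and REV-ERB element TAGGTCA, held by 2.23%, were not found in the windows of the genes. A match is a description of letters in this window.

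In the adult cortex library, 8 of the 10 genes were at least 2-fold higher than in the P8 cortex library and none was at least 2-fold lower. Over the 9849 genes with a mean level of at least 5 CPM, 12% were at least 2-fold higher and 11.9% at least 2-fold lower. The median ratio of adult to P8 was 5.18 for the 10 genes and 1.02 for all genes. All 10 genes met the level of 5 CPM, but Per2, Nr1d1 and Zbtb16, 3 of the 8 that were higher, met it through the adult library alone, so their places in this count follow in part from that limit. With 1 library per age there is no replicate check and no test. The intervals given in parentheses are exact 95% Poisson intervals, or the matching interval of a ratio, and cover counting error only.

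**Figure D1:**
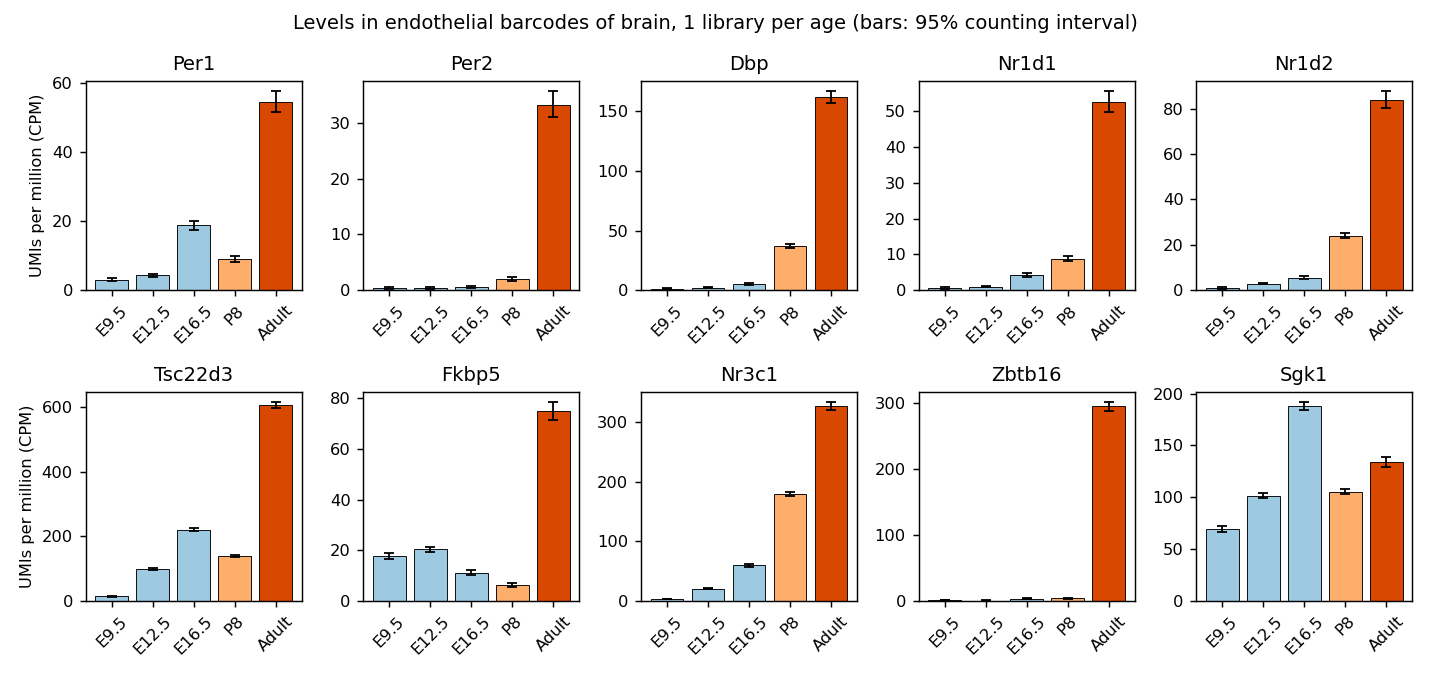
Level of each gene (CPM of the endothelial barcodes, linear axis from 0, a separate axis per gene) in the 5 single-cell libraries, with bars for the 95% counting interval. In 9 panels the adult library is highest, while Sgk1 is highest at E16.5 with 188 CPM and Fkbp5 is lowest at P8 with 6.22 CPM.

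Per1 encodes a repressor of the clock loop that hormones and other signals can also induce within a short time. Its level at E9.5 was 3.02 CPM (2.53 to 3.56), followed by 4.28 CPM (3.84 to 4.76) at E12.5, 18.7 CPM (17.5 to 20.1) at E16.5, 9.02 CPM (8.27 to 9.81) at P8 and 54.5 CPM (51.5 to 57.6) in the adult. The order was not that of age, since E16.5 stood above P8. Adult was 6.04-fold above P8 (5.46 to 6.69), and P8 was 2.08-fold below E16.5. Per2, the paralog of Per1, was at 0.328 CPM (0.184 to 0.541), 0.361 CPM (0.242 to 0.518) and 0.565 CPM (0.362 to 0.840) in the 3 embryonic libraries, 2.05 CPM (1.71 to 2.45) at P8 and 33.3 CPM (31.0 to 35.8) in the adult. The embryonic values of Per2 that stand next to each other in this order rested on 15, 29 and 24 UMIs and overlapped within counting error. The adult to P8 ratio of Per2 was 16.2 (13.4 to 19.8), the second highest of the 10.

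Dbp, the transcription factor of the D-box, stood above 100 CPM in 1 library, the adult one. It measured 1.16 CPM (0.868 to 1.52) at E9.5, 2.21 CPM (1.90 to 2.57) at E12.5, 5.08 CPM (4.43 to 5.81) at E16.5, 36.9 CPM (35.4 to 38.5) at P8 and 162 CPM (157 to 167) in the adult. Each step lay outside counting error, the step from E16.5 to P8 being 7.26-fold and that from P8 to adult 4.38-fold (4.16 to 4.62). Nr1d1, which encodes the repressor REV-ERB alpha, measured 0.634 CPM (0.425 to 0.910), 0.983 CPM (0.778 to 1.23), 4.19 CPM (3.60 to 4.85), 8.82 CPM (8.08 to 9.60) and 52.6 CPM (49.7 to 55.6) in the same order. Its first 2 libraries overlapped. Nr1d2, which encodes REV-ERB beta, measured 0.918 CPM (0.662 to 1.24), 2.94 CPM (2.57 to 3.34), 5.44 CPM (4.76 to 6.18), 24.1 CPM (22.8 to 25.3) and 84.0 CPM (80.3 to 87.8). The adult to P8 ratio was 5.96 (5.38 to 6.61) for Nr1d1 and 3.49 (3.26 to 3.74) for Nr1d2, so the 2 paralogs shared the order of libraries and differed in the size of the last step.

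Nr3c1, the glucocorticoid receptor itself, was higher at each age than at the one before. It was at 2.97 CPM (2.49 to 3.52) at E9.5, 20.5 CPM (19.6 to 21.6) at E12.5, 59.7 CPM (57.4 to 62.1) at E16.5, 179 CPM (175.4 to 182.2) at P8 and 327 CPM (320 to 334) in the adult. The early steps were the larger ones, 6.91-fold from E9.5 to E12.5, 2.91-fold to E16.5 and 2.99-fold to P8, against 1.83-fold (1.78 to 1.88) from P8 to adult. The receptor therefore did not reach 2-fold in the comparison of adult with P8 and reached 110-fold (92.8 to 131) in that of adult with E9.5.

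The known targets of the receptor did not share its course. Fkbp5 encodes a co-chaperone that holds the receptor in a state of low hormone affinity. It was at 17.8 CPM (16.6 to 19.0), 20.3 CPM (19.3 to 21.3) and 11.1 CPM (10.1 to 12.2) in the embryonic libraries, 6.22 CPM (5.61 to 6.88) at P8 and 75.0 CPM (71.5 to 78.6) in the adult. It was the sole gene of the 10 whose lowest value lay at P8, and the adult to P8 ratio was 12.1 (10.8 to 13.5) while the adult to E9.5 ratio was 4.22. Tsc22d3, which encodes the anti-inflammatory protein GILZ, was the most abundant of the 10 in the adult. It measured 14.4 CPM (13.4 to 15.6), 98.6 CPM (96.5 to 101), 221 CPM (216 to 225), 138 CPM (135 to 141) and 607 CPM (597 to 617). E16.5 stood above P8 for this gene as for Per1, and the adult to P8 ratio was 4.40 (4.29 to 4.53). Tsc22d3 lies on the X chromosome, and the X-inactivation RNA Xist was at 180, 498 and 1150 CPM in the embryonic libraries and at 0.0827 and 0.0860 CPM at P8 and in the adult. The Y-linked gene Ddx3y was at 15.7, 27.6 and 0 CPM in the embryonic libraries and at 104 and 111 CPM in the others. By these genes the P8 and adult libraries were both nearly all male, E16.5 was nearly all female, and E9.5 and E12.5 held both sexes. The mix of sexes thus differed little between P8 and adult. From E16.5 to P8 it cannot be told apart from age. Its part in the steps between libraries that differ in it was not tested.

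Zbtb16 had the largest change of the 10 between the cortex libraries. This gene encodes PLZF, a zinc finger repressor of transcription. It measured 1.03 CPM (0.755 to 1.37) at E9.5, 0.485 CPM (0.345 to 0.663) at E12.5, 3.39 CPM (2.86 to 3.99) at E16.5, 3.71 CPM (3.24 to 4.22) at P8 and 295 CPM (288 to 302) in the adult. The 4 younger libraries were all below 4.23 CPM, with E16.5 and P8 overlapping, and adult was 79.6-fold (69.6 to 91.3) above P8. Sgk1, a kinase that regulates ion channels and responds to salt, stress and steroid hormones, had the smallest change. Its levels were 69.3 CPM (66.9 to 71.8), 102 CPM (99.5 to 104), 188 CPM (184 to 192), 105 CPM (103 to 108) and 134 CPM (129 to 139). The highest value lay at E16.5, E12.5 and P8 overlapped, and adult was 1.27-fold (1.21 to 1.32) above P8.

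**Figure D2:**
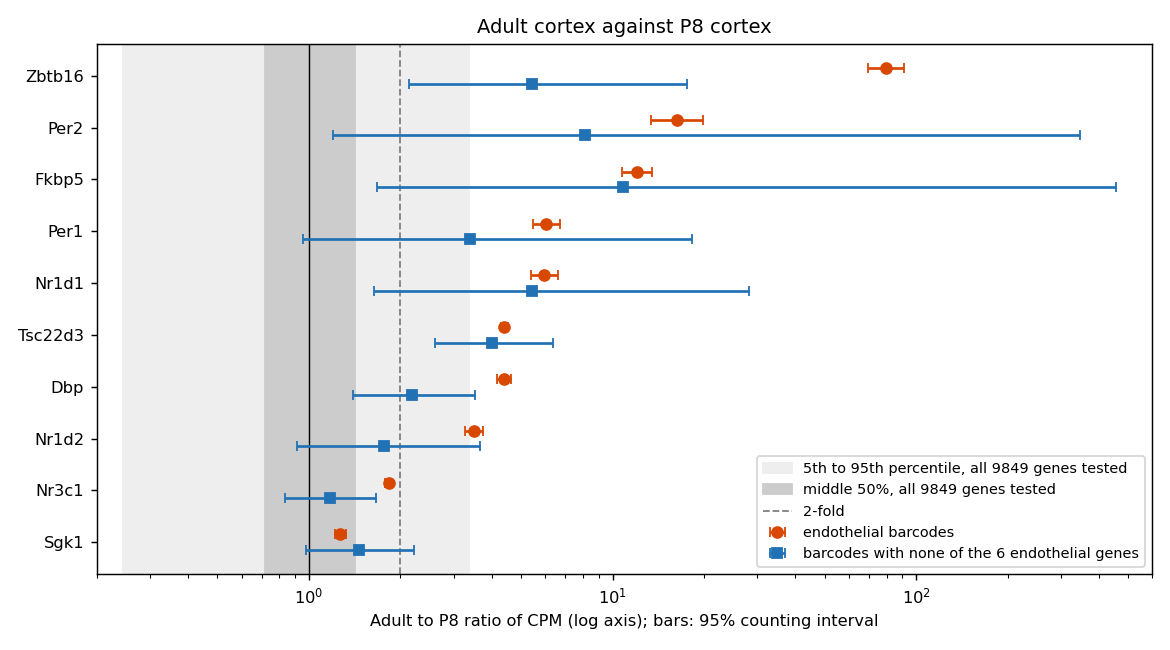
Ratio of the adult to the P8 level in CPM on a log axis, for endothelial barcodes (circles) and for barcodes without any of the 6 endothelial genes (squares), with bars for the 95% counting interval and grey bands for the spread over 9849 genes. Zbtb16 is at 79.6 in endothelial barcodes and at 5.41 in the others, and 8 circles lie to the right of the dashed line at 2-fold.

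Of the 10 ratios, 8 lay above the 95th percentile of all genes, which was 3.36, and those of Nr3c1 and Sgk1 lay below it. Per2, Nr1d1 and Zbtb16 are among the 8 and were kept through the adult library alone, so this count too follows in part from the level of 5 CPM. The spread was thus wide among genes of 1 response, from 1.27 for Sgk1 to 79.6 for Zbtb16. Barcodes that also held at least 2 markers of another cell type made up 10.1 to 16.6% of the endothelial barcodes. Without them the summed pericyte and smooth muscle markers were 39.1 CPM at P8 and 92.7 CPM in the adult, and the Zbtb16 ratio was 88.7 (75.7 to 104), the Per2 ratio 17.0, the Fkbp5 ratio 12.2, the Per1 ratio 6.16, the Tsc22d3 ratio 4.59 and the Nr1d2 ratio 3.53. The ratios of Dbp (4.25) and Nr1d1 (5.77) were slightly lower than in all endothelial barcodes, and those of Nr3c1 (1.92) and Sgk1 (1.27) again stood under 2-fold. The same 8 genes were thus at least 2-fold higher in the adult in the barcodes with few markers of other cells, among which the pericyte markers were still higher in the adult. In 90 values of the 10 ratios under other settings of the barcode limits and of the scaling, none crossed 2-fold in either direction. Of these, 2 moved by over 1.5 times, both of Zbtb16, to 120 with a mitochondrial share of at most 5% and to 127 as a mean over barcodes.

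Between the younger libraries the steps differed from gene to gene, and those of Tsc22d3 and Nr3c1 from E9.5 to E12.5 and of Dbp and Nr1d2 from E16.5 to P8 were larger than their steps from P8 to adult. From E9.5 to E12.5, Nr1d2 (3.20-fold), Tsc22d3 (6.83-fold) and Nr3c1 (6.91-fold) were at least 2-fold higher and Zbtb16 (to 0.472 of its level, 0.301 to 0.738) was lower, where 21.2% of all genes were higher and 7.70% lower. The call of Zbtb16 at this step was lost under 4 other settings of barcodes or of averaging. Dbp (1.91-fold) passed 2-fold with at least 4 of 6 endothelial genes (2.00), without barcodes with markers of other cells (2.24) and without the deepest 5% (2.06). Nr1d1 (1.55-fold) passed it as a mean over barcodes (2.04). From E12.5 to E16.5, 6 were higher and none lower, namely Per1 (4.38-fold), Dbp (2.30-fold), Nr1d1 (4.26-fold), Tsc22d3 (2.24-fold), Nr3c1 (2.91-fold) and Zbtb16 (6.98-fold), where 8.60% of all genes were higher and 6.83% lower. Fkbp5 stood at 0.547 of its E12.5 level at this step. From E16.5 to P8, Per2 (3.63-fold), Dbp (7.26-fold), Nr1d1 (2.1-fold), Nr1d2 (4.42-fold) and Nr3c1 (2.99-fold) were higher and Per1 was lower, where 11.3% of all genes were higher and 7.86% lower. The call of Per1 (to 0.481 of its level) was lost under 3 other settings, without barcodes with markers of other cells, without the deepest 5% and as a mean over barcodes (0.512 to 0.549). At this step Tsc22d3, Fkbp5 and Sgk1 also stood lower without reaching 2-fold, Tsc22d3 at 0.624, Fkbp5 at 0.560 and Sgk1 at 0.561 of their E16.5 values. Fkbp5 did pass 2-fold lower without the deepest 5% (0.436) and as a mean over barcodes (0.416).

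Across the whole series of ages, 9 of the 10 were at least 2-fold higher in the adult than at E9.5 and none lower, against 33.3% and 20.7% of all genes. The median ratio was 87.2 beside 1.27 over all genes. Here too Per2, Nr1d1 and Zbtb16 met the level of 5 CPM through the adult library alone, so the count and the median follow in part from that limit. The largest ratios were those of Zbtb16 (287, interval 216 to 391), Dbp (140, interval 106 to 187), Nr3c1 (110) and Per2 (102, interval 61.3 to 183). The exception was Sgk1 at 1.93-fold, which passed 2-fold under 3 other settings (2.05 to 2.17). Scaling by median-ratio size factors in place of library totals would lower every log2 ratio of adult to E9.5 by 0.30 and of E12.5 to E9.5 by 0.26, and would move the other comparisons by at most 0.05.

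The levels were also read as the share of endothelial barcodes with at least 1 UMI of a gene. Zbtb16 was found in 3.06% of barcodes at P8 (2.59 to 3.58, exact binomial interval) and 72.8% in the adult (71.2 to 74.3), although the adult barcodes were shallower. After each barcode was thinned to 1000 UMIs, which left out 12, 0, 0, 31 and 58 barcodes in order of age, the shares were 0.211% and 25.1%. In the adult the gene was thus detected in most endothelial barcodes. In barcodes with none of the 6 endothelial genes, which were shallower (median 1247 UMIs at P8 and 2463.5 in the adult, against 8468 and 4896 in endothelial barcodes), Zbtb16 was found in 3.85% at P8 and 14.2% in the adult (2.78 and 5.69% of the 72 and 123 barcodes deep enough to thin). The P8 share of Zbtb16 in endothelial barcodes was thus no higher than in these. Tsc22d3 went from 68.0 to 89.5% of barcodes (14.3 to 46.2% thinned), Nr3c1 from 71.5 to 78.1% (17.5 to 29.5% thinned) and Dbp from 30.4 to 53.1% (3.77 to 13.6% thinned). Fkbp5 went from 6.22 to 29.8% (0.421 to 6.23% thinned), Per1 from 9.59 to 28.2% (0.758 to 5.10% thinned) and Per2 from 2.49 to 19.8% (0.190 to 3.62% thinned). In adult barcodes with none of the 6 genes the thinned shares were 20.3% for Tsc22d3, 18.7% for Nr3c1, 13.8% for Dbp, 6.50% for Nr1d1, 4.88% for Nr1d2 and 4.07% for Sgk1, and 1.63 to 2.44% for the other 3. Those of Dbp and Nr1d1 were not below the endothelial ones, so no expression per cell is read from them. Nr1d2 and Nr1d1 were detected in 39.0 and 25.7% of adult barcodes, against 22.6 and 9.90% at P8. Sgk1 had a lower share in the adult (49.2% against 57.7%) but not after thinning (12.2% against 10.9%), so no order is read from it. At least 5 of the 10 genes were detected together in 0.0354, 1.06, 5.44, 14.1 and 53.1% of barcodes from the youngest library to the adult. These joint shares were not thinned, although depth differed between libraries, and they include Dbp, Nr1d1 and Sgk1.

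**Figure D3:**
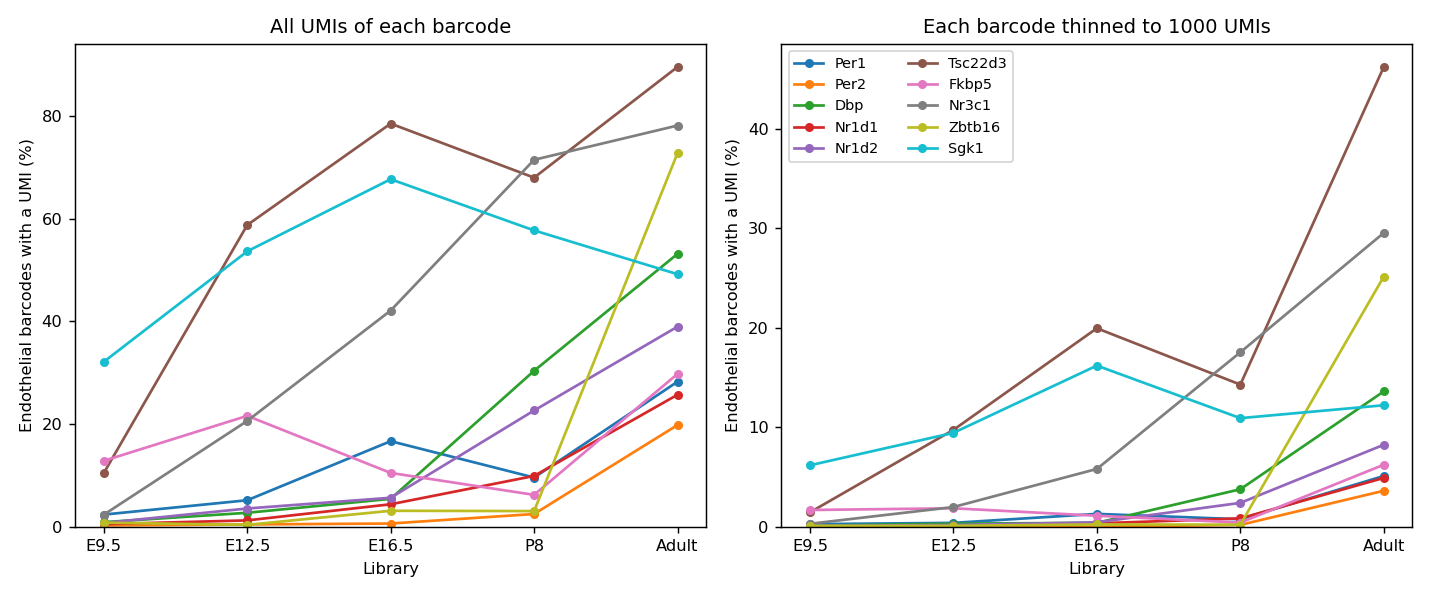
Percentage of endothelial barcodes with at least 1 UMI of each gene in the 5 libraries, from all UMIs (left) and after thinning every barcode to 1000 UMIs (right). The line of Zbtb16 stays below 4% until P8 and reaches 72.8% in the adult (25.1% thinned), and the Sgk1 line differs in direction between P8 and adult on the 2 sides.

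The same genes were read in barcodes with none of the 6 endothelial genes, of which there were 130 at P8 (median 1247 UMIs) and 176 in the adult (median 2463.5 UMIs). These are few, they mix cell types, and none of these genes is known to be absent from them, so they are no blank. Zbtb16 was at 12.8 CPM at P8 and 69.1 CPM in the adult there, a ratio of 5.41 (2.14 to 17.6) whose interval lay wholly below that of the endothelial barcodes. Within the adult library Zbtb16 was 4.27-fold (3.13 to 5.98) higher in endothelial barcodes, Fkbp5 2.72-fold, Tsc22d3 2.38-fold, Per1 2.1-fold and Nr3c1 1.95-fold. Dbp differed little between the 2 classes in the adult, at 162 and 145 CPM (ratio 1.12, 0.898 to 1.40), and Sgk1 was at 134 and 138 CPM. Dbp (2.19, 1.39 to 3.54), Nr1d1 (5.41, 1.64 to 28.1) and Tsc22d3 (4.01, 2.61 to 6.39) were also higher in the adult than at P8 in these barcodes, as were Per2 (8.12, 1.20 to 347) and Fkbp5 (10.8, 1.68 to 454), each with 1 UMI at P8. The intervals of Per1, Nr1d2, Nr3c1 and Sgk1 included 1 there.

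Endothelial barcodes of the cortex were also divided by markers of arteries and veins, with at least 2 markers of one list and none of the other. This gave 204 arterial and 685 venous barcodes in the adult and 95 and 1168 at P8. In the adult, Fkbp5 was 3.59-fold higher in venous barcodes (120 CPM) than in arterial ones (33.5 CPM), the arterial to venous ratio being 0.279 (0.193 to 0.391). At P8 Fkbp5 had 136 UMIs in venous barcodes (7.50 CPM, 6.29 to 8.87) and 0 in the far fewer arterial ones (0 to 7.00 CPM). These intervals overlapped, and the upper limit of the arterial to venous ratio was 0.947, so the P8 difference lay only just beyond counting error. Nr1d1 and Dbp stood the other way round in the adult, Nr1d1 at 67.9 CPM arterial and 36.0 CPM venous (ratio 1.89, 1.42 to 2.48) and Dbp at 217 and 134 CPM (ratio 1.62, 1.39 to 1.88). Zbtb16 showed no difference beyond counting error, with 296 CPM arterial and 329 CPM venous (ratio 0.899, 0.794 to 1.01). Tsc22d3 was 2.61-fold higher in arterial barcodes at P8 (273 against 105 CPM) and lower in them in the adult (551 against 677 CPM). Each ratio comes from 1 library, and venous barcodes were deeper, with a median of 6253 against 4885.5 UMIs in the adult and 10494 against 4949 at P8.

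Other genes of the clock were counted from a list of 18, of which 14 had a mean of at least 5 CPM. Between P8 and adult 6 were at least 2-fold higher and 1 lower, with a median ratio of 1.85 beside 1.02 over all genes, of which 12% were higher and 11.9% lower. Of those 6, Hlf and Ciart met the level of 5 CPM through the adult library alone. Between E9.5 and adult 10 were higher and 1 lower, with a median of 5.43 beside 1.27 over all genes, of which 33.3% were higher and 20.7% lower. The largest adult to E9.5 ratios were those of Rora (103), an activator of Arntl, of Tef (68.1) and Hlf (66.2), the relatives of Dbp, and of Per3 (44.5). From E9.5 to adult Tef measured 1.68, 4.13, 10.4, 22.6 and 115 CPM, Hlf 1.14, 6.45, 4.00, 7.13 and 75.3 CPM, and Per3 2.40, 3.02, 5.08, 22.9 and 107 CPM. The adult library was the highest for each of these 3, as for Dbp and Per2. Arntl, the activating partner of CLOCK, stood apart with 1.62, 5.13, 9.32, 8.50 and 2.02 CPM, which is a ratio of adult to P8 of 0.238 (0.172 to 0.321). The smallest adult to E9.5 ratios were those of Nfil3 (0.156), a repressor at D-boxes, the kinases Csnk1d (0.906) and Csnk1e (1.18), which act on PER proteins, and Arntl (1.25). Of the 14 genes, Arntl was the single one at least 2-fold lower in the adult than at P8.

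Of 18 other genes tied to glucocorticoids, 17 were in the gene table and 12 had a mean of at least 5 CPM. Of these, 7 were at least 2-fold higher in the adult than at P8 and none lower, and 7 were higher and 3 lower in the adult than at E9.5. Over all genes the shares were 12% and 11.9% for adult against P8, and 33.3% and 20.7% for adult against E9.5, so that the 3 lower genes were near the background. The median ratios were 3.15 and 17.4, beside 1.02 and 1.27 over all genes, and Mt2 met the level of 5 CPM through the adult library alone. Sult1a1, a sulfotransferase, had the largest adult to E9.5 ratio (527), followed by Klf9 (123), a transcription factor and receptor target, the metallothionein gene Mt2 (36.3) and the cell cycle inhibitor Cdkn1a (28.6). Klf9 measured 4.66, 6.27, 19.3, 92.3 and 575 CPM, Mt1 44.0, 31.6, 9.01, 36.9 and 760 CPM, and Glul, the glutamine synthetase gene, 35.6, 279, 407, 178 and 634 CPM. Klf9 thus followed the order of Dbp, whereas Mt1 had its lowest value at E16.5. The smallest ratios were those of the chaperones that fold the receptor, Hsp90aa1 (0.329), Hsp90ab1 (0.336), Fkbp4 (0.452) and Ptges3 (0.514). Their adult to P8 ratios were between 1.07 and 1.51, below the 12.1 of Fkbp5.

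Across the 5 libraries, genes with the most similar course were found by Euclidean distance of log2(CPM + 1) values, each centred on its own mean. The nearest gene to Per1 was another clock gene, Ciart (distance 0.327), and the 3 nearest to Dbp were Zbtb20 (0.278), Klf9 (0.562) and Gbp5 (0.722). Nr3c1 was closest to Sorbs2 (0.473), Tsc22d3 to Tap2 (0.322), Fkbp5 to Cables1 (0.374), Nr1d2 to Il1r1 (0.243), Nr1d1 to Ccdc109b (0.228), Per2 to Ntn4 (0.214) and Sgk1 to Cish (0.205). Zbtb16 had no close neighbour. Its nearest were Alpl (1.17), Plscr4 (1.39) and Myh11 (1.39), the last being a smooth muscle gene that went from 1.26 CPM at P8 to 79.8 CPM in the adult. Over 5 libraries many genes can look alike, and the distances are descriptions.

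Open chromatin was compared as the number of peaks in the gene or within 50 kb of it, per 10000 peaks of the same list. Lists were shorter at older ages, with 35931 ± 8577 peaks (SD, n = 12) in adult endothelial libraries, 68291 ± 19188 (n = 14) at P6 and 94182 ± 23117 (n = 11) at E12, so that a number and a share of peaks can move in opposite directions. Each difference was the mean over organs, tested with an exact permutation test (two-sided) that exchanged labels within organs, adjusted by the Benjamini-Hochberg method over 21431 protein-coding genes. The labels do not say that libraries came from separate animals, so these p-values measure the spread between libraries, which may be technical. Windows hold other genes too, 7 other coding genes for Per1, 9 for Dbp, none for Tsc22d3 and Sgk1 and 1 to 4 for the rest.

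Adult endothelial lists held a larger share of their peaks near 5 of the 10 genes than P6 lists. Over all genes 30.6% passed the test in this direction and 10.2% in the other, in which none of the 10 did. Near Per1 there were 11, 15 and 18 peaks in adult lists (lowest, median and highest) and 9, 17 and 21 in P6 lists, which is 4.17 ± 0.60 per 10000 (SD, n = 12) against 2.57 ± 0.45 (n = 14). The numbers overlapped while the shares were higher in the adult in 6 of 6 organs (difference 1.56, adjusted p = 0.00113, exact permutation test). Per2, with 4, 8.5 and 10 peaks against 6, 11 and 13, had 2.32 ± 0.29 against 1.61 ± 0.40 per 10000 (difference 0.68, adjusted p = 0.00169, 6 of 6 organs, exact permutation test). Both Per genes thus had a higher share in the adult and a lower median number. Tsc22d3, with 3, 9 and 16 peaks against 5, 12 and 16, had 2.55 ± 0.83 against 1.78 ± 0.38 per 10000 (difference 0.73, adjusted p = 0.00126, 6 of 6 organs, exact permutation test). Zbtb16, with 4, 10.5 and 14 peaks against 4, 16.5 and 21, had 3.03 ± 1.07 against 2.08 ± 0.72 per 10000 (difference 0.98, adjusted p = 0.00330, 6 of 6 organs, exact permutation test). The difference was 2.30 per 10000 in kidney and 0.353 in brain for this gene, the organ of the single-cell libraries. Nr1d1, with 9, 11.5 and 15 peaks against 9, 16.5 and 23, had 3.46 ± 0.75 against 2.57 ± 0.55 per 10000 (difference 0.83, adjusted p = 0.00965, 5 of 6 organs, exact permutation test), the exception being liver at -0.27. These 5 genes came from both groups, the clock and the glucocorticoid response.

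The other 5 genes did not pass, with adjusted p of 0.0666 for Nr1d2, 0.139 for Nr3c1, 0.300 for Dbp, 0.658 for Fkbp5 and 0.716 for Sgk1 (exact permutation test). Fkbp5 had 2.26 ± 0.62 per 10000 in the adult and 2.14 ± 0.54 at P6, and Sgk1 2.09 ± 1.09 and 2.13 ± 0.68. As plain numbers of peaks, all genes that passed on this scale turned round, and 0 of the 10 had more and 9 had fewer peaks in the adult, where 20 of all genes had more and 16236 fewer. With the same number of top peaks from every list, 1 of the 10 passed, Tsc22d3 (adjusted p = 0.0415, exact permutation test), so the result depends on how the list length is handled. With only peaks of a -log10 q of at least 5, Per1 (adjusted p = 0.0694) and Nr1d1 (0.430) lost the call by the exact permutation test.

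**Figure D4:**
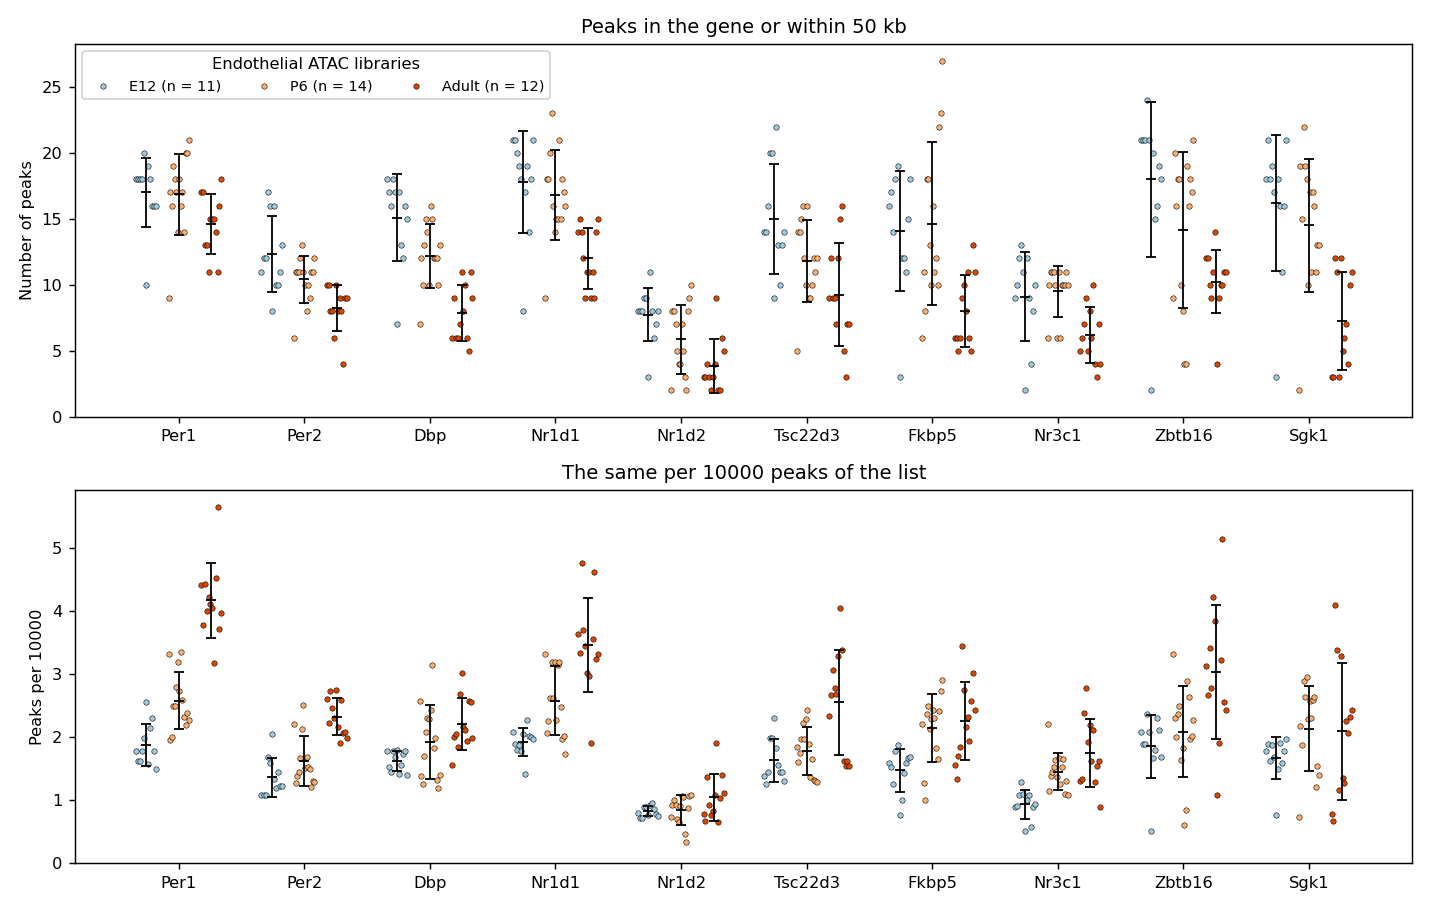
Peaks in each gene or within 50 kb, as a number (top) and per 10000 peaks of the same list (bottom), for every endothelial ATAC-seq library of E12 (n = 11), P6 (n = 14) and adult (n = 12), with mean and SD as bars. For all 10 genes the median number is lower in adult than in P6 libraries, with ranges that overlap, while for Per1 the mean per 10000 peaks is higher (4.17 against 2.57 at P6).

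Endothelial lists were set against input lists of the same organs. In the adult, 1 of the 10 had fewer peaks per 10000 and none had more, where 7.03% of all genes had fewer and 12.2% more. That gene was the receptor, Nr3c1, with 1.75 ± 0.54 (n = 12) against 2.38 ± 0.96 (n = 10), lower in 6 of 6 organs (difference -0.58, adjusted p = 0.0451, exact permutation test), a call lost in 16 of 22 fits that each left out 1 library. With only the libraries whose aligned file has the same name ending in both groups of an organ, none had fewer and 4 had more peaks, Per1 and Nr1d1 (adjusted p = 0.0197 each, exact permutation test) and Dbp and Tsc22d3 (0.0358 each). This fit kept 10 endothelial and 6 input libraries of 5 organs, and no liver library. In the full comparison the liver differences per 10000 were 0.04 for Per1, -0.30 for Nr1d1, 0.29 for Dbp and 1.04 for Tsc22d3. With those libraries that were kept, 20.7% of all genes had more and 6.43% fewer. The headers do not say what the name endings, of 7 forms, stand for. The adult comparison thus changed with the libraries used. At P6, 4 of the 10 had more peaks and none fewer, where 23.3% of all genes had more and 13.4% fewer. Fkbp5, with 6, 12.5 and 27 peaks in endothelial lists and 6, 10.5 and 21 in input lists, had 2.14 ± 0.54 per 10000 (n = 14) against 1.42 ± 0.59 (n = 16) and more in 6 of 6 organs, with an adjusted p of 3.48e-05 from the smallest p that the exact permutation test can give. Dbp, with 7, 12 and 16 against 7, 10.5 and 16 peaks, had 1.92 ± 0.59 against 1.39 ± 0.44 (adjusted p = 0.000427, 6 of 6 organs, exact permutation test). The ranges overlapped, and the shares stood apart in the mean. Sgk1, with 2, 15.5 and 22 against 3, 14.5 and 21 peaks, had 2.13 ± 0.68 against 1.48 ± 0.33 (adjusted p = 0.00376, 4 of 6 organs, exact permutation test). Tsc22d3 had 1.78 ± 0.38 against 1.48 ± 0.55 (adjusted p = 0.0342, 5 of 6 organs, exact permutation test), which was lost on leaving out any 1 of 4 libraries (replicate 2 of P6 kidney or lung endothelial, replicate 1 of P6 liver endothelial or replicate 3 of P6 liver input) and with the name endings matched (0.0643). The genes with more peaks per 10000 at P6 were thus Fkbp5, Sgk1, Tsc22d3 and Dbp. The receptor's other known targets, Per1 (adjusted p = 0.0660) and Zbtb16 (0.861), did not pass the exact permutation test. All 4 calls were lost as plain numbers of peaks (adjusted p between 0.219 and 0.607, exact permutation test) and with the same number of top peaks from every list (between 0.113 and 0.257). With only peaks of a -log10 q of at least 5, Fkbp5 (0.0797) and Tsc22d3 (0.184) were lost, and within 5 kb of the gene Dbp (0.559) and Tsc22d3 (0.335).

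Between P6 and E12 endothelial lists of brain and heart no gene passed, 0.00% with more and 0.00% with fewer peaks. This design allows 300 relabellings and a smallest p of 0.00333. At an unadjusted p under 0.05 by the exact permutation test, 3119 genes had more and 1658 fewer, and 3 of the 10 were among them, Nr1d1 (p = 0.00667), Nr3c1 (p = 0.0100) and Per1 (p = 0.0233), each with a higher share at P6 in both organs. Without E12 heart endothelial replicate 3, 2033 genes had more and 732 fewer peaks, Per1 among the former (adjusted p = 0.0388, exact permutation test).

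Each of the 7 genes with promoter entries had a start with a peak within 500 bp in at least 64 of the 66 lists. Dbp, Nr1d1, Nr1d2 and Fkbp5 had one in 66 of 66 lists, as did the first Tsc22d3 start and the last 2 Sgk1 starts, and Per1 had one at its first start in 64 and at its second in 59. Of the 15 annotated starts of these genes, 8 had a peak in fewer than 66 lists. The starts of Dbp and Nr1d1 thus had peaks in endothelial and input libraries alike, at E12 and P6 as well as in the adult. The brain endothelial RNA of Dbp and Nr1d1 was at 2.21 and 0.983 CPM at E12.5, and at 36.9 and 8.82 CPM at P8. Where no promoter entry existed, the ends of the gene were used. The upper end of Per2 had a peak in 66 lists and that of Zbtb16 in 62, against 1 and 0 at their lower ends. Nr3c1 had one at its lower end in 2 and at its upper end in 3 of 66 lists, while a region inside it (chr18:39488870-39492045) had one in 66. Starts inside these genes are not known here, so a low number at a gene end does not show a closed start. The region inside Nr3c1 may itself hold a start.

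A pair of starts had a peak more often in endothelial than in input lists, though not in every organ. The fourth start of Sgk1 (position 21992223 of chromosome 10, sequence above) had a peak in 11 of 11 E12, 14 of 14 P6 and 5 of 12 adult endothelial lists, and in 0 of 3, 5 of 16 and 1 of 10 input lists. In adult endothelial lists it was present in 0 of 2 in brain, retina and lung, in 1 of 2 in kidney and in 2 of 2 in heart and liver. In lung its input lists had it as often or more, in 3 of 3 at P6 and 1 of 2 in the adult. The middle Tsc22d3 start (position 140548571 of chromosome X, sequence above) had a peak in 4 of 11, 9 of 14 and 6 of 12 endothelial lists and in 0 of 3, 0 of 16 and 1 of 10 input lists. Its adult endothelial peaks were those of heart, kidney and liver, 2 of 2 each, with 0 of 2 in brain, retina and lung, while the 1 adult input list of brain had the peak. These starts were chosen after their values were seen, and no test was made of them.

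**Figure D5:**
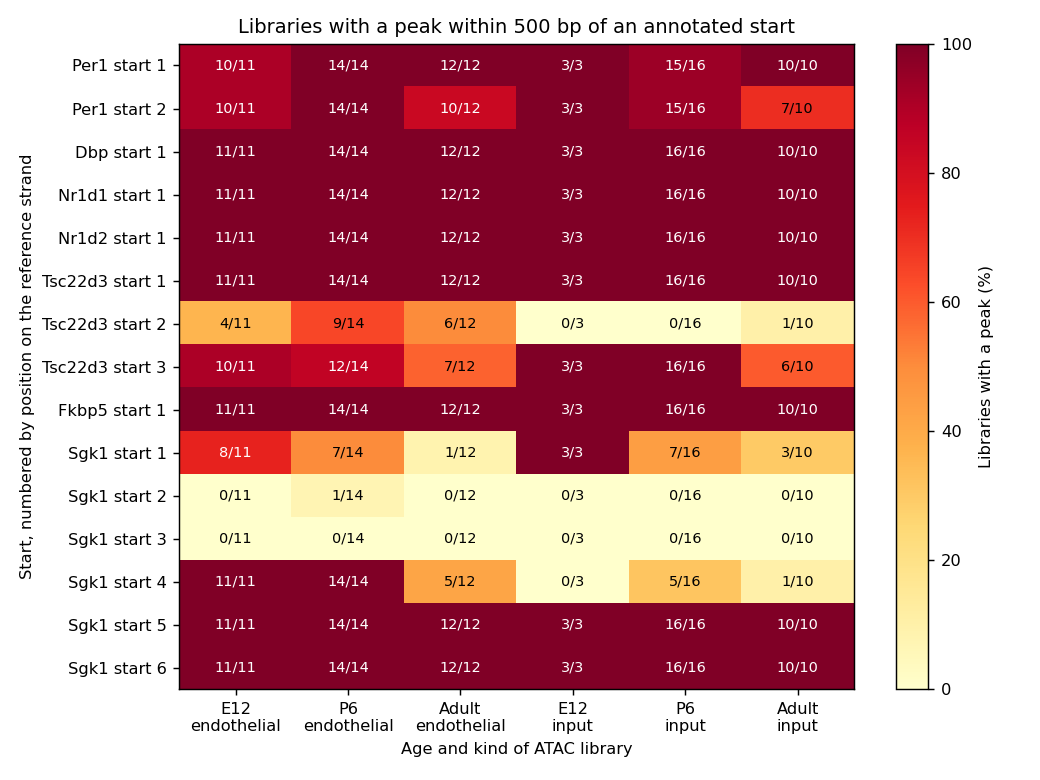
Percentage of ATAC-seq libraries with a peak within 500 bp of each annotated start, by age and kind, with the number of libraries written in each cell. Of 15 annotated starts, 7 are filled in all groups, while the fourth start of Sgk1 has 14 of 14 P6 and 5 of 12 adult endothelial libraries and the middle Tsc22d3 start has 0 of 16 P6 input libraries.

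Away from the starts, 1 region per gene was taken for the most endothelial lists and 1 for the largest difference between adult and P6. Where no promoter entry existed, the gene ends stood for the starts, so such a region may hold a start. The files and the gene table give gene ends but no exons here, so a region is placed in or outside the gene. Inside Zbtb16, chr9:48739921-48740748 had a peak in all 66 lists, although the RNA was below 4 CPM in the younger brain libraries. Inside Dbp, chr7:45707585-45708493 had one in 37 of 37 endothelial and 28 of 29 input lists. For Sgk1, chr10:21857566-21858320, 23864 bp outside the gene, had one in 33 of 37 endothelial and 12 of 29 input lists. The Zbtb16 and Dbp regions were thus present in the endothelial lists of every age. The region for Fkbp5 (chr17:28522507-28523748, 36358 bp outside) had a peak in 37 of 37 endothelial and 27 of 29 input lists.

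All 10 regions with the largest difference were found in fewer adult than P6 lists, and the adult lists were shorter (median 36756 against 69068 peaks). Near Dbp, chr7:45744385-45744785, 34182 bp outside and touching Sult2b1, had a peak in 14 of 14 P6 and 2 of 12 adult endothelial lists, both of the latter from retina. Near Fkbp5, chr17:28368332-28368836, 29917 bp outside, had one in 10 of 11 E12, 11 of 14 P6 and 0 of 12 adult endothelial lists, against 2 of 3, 10 of 16 and 5 of 10 input lists. Near Zbtb16, chr9:48604905-48606583, 45214 bp outside and touching Nnmt, had one in 7 of 14 P6 and 0 of 12 adult endothelial lists. Near Nr1d2, chr14:18169752-18170922, 33134 bp outside, was mostly endothelial, with 11 of 11 E12, 9 of 14 P6 and 2 of 12 adult lists (both liver) against 1 of 29 input lists. For these genes the adult brain had higher RNA and no peak at the named region in its 2 lists.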

How the data were processed

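Single-cell tables hold the authors' counts of UMIs per gene and barcode, deposited as filtered matrices, made with Cell Ranger on mm10 per the submitters' processing notes. The E16.5 matrix was read with the gene order of the other tables: 3793 of its 3997 barcodes then held at least 3 of the 6 endothelial genes. Counts were summed over endothelial barcodes and divided by their total. No doublet caller was run; barcodes with markers of other cells, or the deepest 5%, were left out as alternatives.

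The ATAC-seq files are peak lists, called by the authors with MACS2 2.1.2 for each library separately, in broad mode and without a control, per the file headers. Each peak has a deposited pileup signal, a fold (a ratio over the local background), and −log10 of the p-value and q-value, as the authors' caller gave them. Their depth was 10.1 to 59.1 M (mega) tags per library. Peaks were matched to RefSeq gene positions of GRCm38.p6. Nuclear RNA-seq was not used here, because its transcripts could not be paired with genes.

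The members and lists were chosen with earlier results of these data known. All 10 genes were named with their values. In the 2 other lists, the genes with the 4 largest and 4 smallest adult to E9.5 ratios were named. This held at a mean of at least 5 CPM, and genes reaching 500 CPM were named too. The 3 nearest genes per member were found by likeness and 2 peak regions per member by rule. Only some of these neighbours and regions are named above. Groups and replicate numbers came from the titles.

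The permutation test was run exactly over all relabellings within organs, 129600 for adult against P6. On simulated Poisson counts in the layout of that comparison, made for 4000 genes, it recovered 176 of 200 genes changed 3-fold with 6 false calls. The simulation had no difference in list length and no spread between libraries beyond Poisson. These figures check the working of the test and do not carry over to the calls on the real lists. Replicate numbers were not taken as pairs, since the labels do not say that they mark shared animals. Same-numbered libraries of an organ deviated together (correlation over 0.1) in 2 of 12 pairs for adult against P6, which does not decide the matter. Alternatives covered scaling, barcode limits, fold, peak threshold, window, overlap, left-out libraries, a replicate block and, chosen after seeing the data, matched file name endings. Software was Python 3.11.15 with numpy 2.4.6, scipy 1.17.1, pandas 2.3.3, numba 0.67.0 and matplotlib 3.10.9.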

Additional observations from a re-analysis of the deposited data

Results flagged for a closer look

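The 2 groups of 4 libraries, E12 heart and trunk endothelial, were looked at for a library standing apart for each of the 10 genes. Of these 20 cases 3 had one, where chance gives about 1 in 20. That rate need not hold for small whole numbers of peaks. In E12 trunk endothelial lists, replicate 2 held the most peaks near Per2, 1.44 per 10000, and a different library, replicate 1, the most near Nr1d1, 2.26 per 10000, each apart from the other 3. In E12 heart endothelial lists the lowest library, replicate 3, held 3 peaks near Nr1d2, or 0.767 per 10000, where the mean of the group was 0.865. With so few peaks, 1 peak more would have put it above that mean, so nothing about Nr1d2 is read from it. Its list was the shortest of the E12 endothelial lists, with 39096 peaks against a median of 101233. Leaving out this library changed the comparison of P6 with E12.

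Between adult and P6 endothelial lists, 3 genes went in opposite directions in different organs, with every library of one age on the same side of every library of the other. Peaks near Dbp per 10000 differed by 0.968 (adult minus P6) in retina and by -0.648 in liver. Peaks near Fkbp5 differed by 0.891 in kidney and by -0.652 in heart. Peaks near Sgk1 differed by 0.990 in retina and by -1.13 in liver. The difference between organs was not tested. How many of all genes do the same was not counted, and each organ had only 2 or 3 libraries per age. Nothing particular to these 3 genes is therefore read from the count.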

How the results depend on the processing

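For the single-cell counts, the numbers of the 10 genes past 2-fold between adult and P8 and between adult and E9.5 stayed within 1.5 times under the settings tried. From E9.5 to E12.5, 3 higher became 5 at 1.5-fold, and 1 lower became 0 at 3-fold, with 2 of 6 endothelial genes, without barcodes with other markers, without the deepest 5% and as a mean over barcodes. From E12.5 to E16.5, 6 higher became 3 at 3-fold and 0 lower became 1 at 1.5-fold. From E16.5 to P8, 5 higher became 3 at 3-fold, and 1 lower became 0 at 3-fold or without barcodes with other markers and 4 at 1.5-fold. The shares of all genes at 1.5-fold and 3-fold were not counted, so the numbers at these folds have no background beside them.

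For peaks in adult against P6 lists, 5 with more became 0 as plain numbers and 1 with equal numbers of top peaks, and 0 with fewer became 9 as plain numbers. As plain numbers the direction reversed for Per1 (adjusted p = 0.0387), Per2 (0.00830), Nr1d1 (0.00168), Tsc22d3 (0.0556) and Zbtb16 (0.0374), all by exact permutation test; this setting does not divide by list length. For endothelial against input in the adult, 0 with more became 1 within 5 kb and 4 with matched name endings, and 1 with fewer became 4 as plain numbers and 0 with equal top peaks, a −log10 q of at least 5, a 5 kb window, matched name endings or the replicate block. At P6, 4 with more became 0 as plain numbers, 0 with equal top peaks and 2 at the q limit, and 0 with fewer became 2 and, at the q limit, 1; Tsc22d3 reversed as plain numbers (adjusted p = 0.607, exact permutation test). The cause of these changes was not tested.

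Over all genes, adult against P6 gave 6566 with more and 2189 with fewer, against 20 and 16236 as plain numbers and 183 and 137 with equal top peaks. Endothelial against input in the adult gave 2615 and 1507, against 61 and 4978, and 506 and 229, then 961 and 417 at the q limit, 1316 and 706 within 5 kb, and 4427 with more for matched name endings. At P6 it gave 4996 and 2865, against 417 and 6224, and 2423 and 1782, then 3244 and 1796 within 5 kb.

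Leaving out 1 library at a time gave 5 to 6 with more and 0 to 0 with fewer for adult against P6, 0 to 3 and 0 to 1 for endothelial against input in the adult, 3 to 5 and 0 to 1 at P6, and 0 to 1 and 0 to 0 for P6 against E12. Over all 21431 genes the same fits gave 5657 to 7599 with more and 1885 to 2514 with fewer for adult against P6. For endothelial against input they gave 1389 to 3820 and 722 to 1696 in the adult, and 4350 to 5511 and 2523 to 2938 at P6. For P6 against E12 they gave 0 to 2033 and 0 to 732. With the replicate block, 4 had more and 0 fewer for adult against P6 (4258 and 1285 of all genes). In the adult comparison with input the block gave 0 and 0 (0 and 0 genes). At P6 it gave 4 and 0 (4592 and 1778 genes), and for P6 against E12 it gave 0 and 0 (0 and 0 genes). Same-numbered libraries deviated together (correlation over 0.1) in 2 of 12, 4 of 8, 3 of 12 and 1 of 5 pairs of these comparisons in turn. With so few libraries per group these correlations can neither show nor exclude pairing. The labels do not say that a number marks shared animals, so the numbers are not taken as pairs. If endothelial and input libraries were paired, the block would be the matching test. The 1 single-cell library per age and the 19464 peaks of the shortest list limit what can be seen.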
